A study of Mus musculus with 24 samples.

Results

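The data compared here were RNA sequencing counts from visceral adipose tissue of mice after partial nephrectomy (PNx) or sham surgery (Control), with the green fluorescent protein GFP expressed from the same lentivirus in both groups. These 12 libraries, 6 per group and 1 per mouse, were taken from a series of 24 by the labels alone. The members of the comparison were all 26116 genes whose counts over the 24 libraries summed to more than 10, of 54232 genes in the count table. The mice were male C57BL6 animals aged 10 weeks by the description of the series, while the methods of the study give a range of ages at purchase. They were kept on normal chow. PNx joined ligation of part of the left kidney with removal of the right kidney, and the sham animals underwent the operations without either step. All 12 animals were injected intraperitoneally with a lentivirus in which the adiponectin promoter drove eGFP. That promoter is active in adipocytes, so the transgene is restricted to them only as far as the promoter is. The other 12 mice received a vector with the same promoter that carried NaKtide together with GFP, and they were used as a further nephrectomy against sham comparison (PNx+NaKtide against NaKtide) that shares no library with this one.

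White adipose tissue stores triglyceride in adipocytes, which release fatty acids by lipolysis and secrete hormones such as adiponectin. The tissue also holds endothelial cells, fibroblast progenitors, mesothelium and immune cells. Loss of kidney mass exposes it to retained uremic solutes and oxidant stress, and the Na,K-ATPase has been studied there as a signalling partner of the kinase Src. In bulk RNA, fewer cells of a type and less RNA per cell cannot be told apart.

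Libraries held 1538612 to 2366069 counts in Control and 1619842 to 2979505 counts in PNx. A count of 0 allowed up to 2.35 CPM (counts scaled to a common library total, with a correction for composition) in PNx 4, the library of smallest corrected size among the 12, for counting error only. Genes whose exons overlap those of an opposite-strand gene held 77.5 to 83.7% of the counts in Control and 70.2 to 82.8% in PNx. The libraries were stranded, but the strand setting of the counting is not given in the sources used here. A gene and its opposite-strand partner have separate counts, but which strand each count reflects is therefore not known. Values given below for a gene with such a partner may belong to either. Whether reads were assigned to the wrong strand was not tested. All 15 adipocyte markers were detected, with a summed level of 276 to 1030 CPM in Control, of 238 to 553 CPM in PNx 1 to 5 and of 11200 CPM in PNx 6. Adipoq, the gene of adiponectin and the source of the transgene promoter, ranged from 6.42 to 56.2 CPM (median 33.8) in Control and from 5.5 to 345 CPM (median 91.8) in PNx. Markers of the epididymis, the organ that gonadal fat surrounds, were present in the same libraries. The epididymal peroxidase gene Gpx5 ranged from 258 to 650 CPM (median 435) in Control and from 1.23 to 630 CPM (median 157) in PNx. Summed epididymis markers were at 1400 to 3390 CPM and summed kidney markers at 3770 to 4710 CPM in Control, both above the adipocyte markers. Most of the kidney sum was counted in Nphs1, which overlaps its own antisense gene, so that sum may not reflect kidney transcripts. Counts of adipocyte genes were thus found beside counts of epididymis markers, in shares that differed between mice of 1 group. The share of RNA that came from fat was not measured.

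At a Benjamini-Hochberg (BH) adjusted p-value under 0.1 (edgeR quasi-likelihood test), 20 genes fell in PNx and none rose. The 20 genes are 0.0766% of those tested, and each had an adjusted p-value of 0.0943. No gene with a higher level in PNx went below an adjusted p-value of 0.121, although 4838 such genes had an unadjusted p-value under 0.05. Other tools differed here, since DESeq2 called 6861 genes higher and limma voom with sample weights called 8550. For the 18 called genes with counts in both groups, log2 fold changes ran from -4.03 to -1.69. The remaining pair, Foxl2os and Gm45805, had 14 and 15 counts in Control and 0 in PNx. They were at least 7.21-fold and 7.22-fold lower, set against a floor of 3 counts over the 6 PNx libraries together. With these genes at their bounds the median log2 fold change of the 20 was -2.66, against 0.361 over all genes tested.

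Few of the called genes encode known proteins. By the annotation, 4 were protein-coding, as were 16977 of the 26116 genes tested, and 7 were antisense transcripts, as were 2020 of those tested. Of the 20, 14 shared exon bases with an opposite-strand gene, as did 8111 of those tested. Rnd2 (chr11:101464999-101471853, plus strand), a small GTPase, ranged from 79 to 289 CPM (median 253) in Control and from 24.7 to 95.8 CPM (median 57.3) in PNx. Its log2 fold change was -1.83 ± 0.38 (SE, n = 6). It shares 226 exon bases with Vat1, whose own log2 fold change was -0.50 ± 0.41. Mgme1 (chr2:144270663-144281227, plus strand), an exonuclease that maintains mitochondrial DNA, ranged from 13 to 47.3 CPM (median 36.1) in Control and from 3.2 to 16 CPM (median 8.17) in PNx. Its log2 fold change was -1.94 ± 0.41, and it shares 206 exon bases with the sorting nexin gene Snx5. Gm26620, a predicted gene that shares 474 exon bases with the phosphatase gene Dusp12, had a log2 fold change of -1.81 ± 0.38. Dbndd1 (chr8:123504718-123515463, minus strand), a dysbindin domain protein, was the protein-coding gene among the 20 with no opposite-strand partner. It ranged from 18.1 to 172 CPM (median 110) in Control and from 10.6 to 44.8 CPM (median 15.4) in PNx, a log2 fold change of -2.15 ± 0.46.

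The most abundant of the 20 was 4931431C16Rik, an antisense transcript that shares 700 exon bases with the peroxisomal oxidase gene Acox3. It ranged from 145 to 1080 CPM (median 669) in Control and from 23 to 207 CPM (median 94.5) in PNx, with a log2 fold change of -2.46 ± 0.48. Acox3 itself had a log2 fold change of -0.64 ± 0.37 (adjusted p-value 0.252). The gene model 5830462I19Rik, which lies opposite the SREBP-regulating gene Scap over 985 bases, had a log2 fold change of -1.81 ± 0.38. Gm10366, opposite the lipoprotein receptor family gene Lrp10, had one of -2.21 ± 0.43, and Gm16023, opposite the transporter gene Slc35e2, one of -2.20 ± 0.47. In Control the called gene had the higher mean level in most pairs, such as 347 CPM for 5830462I19Rik against 7.93 CPM for Scap. The partner had the higher mean level for AU022754, Foxl2os, Gm15628 and Gm26571. The partner genes did not pass the test themselves. Of the 14 partners, Foxl2, an ovarian transcription factor opposite Foxl2os, had the lowest log2 fold change (-3.86 ± 0.88, unadjusted p-value 0.000157). Fgfr3, a fibroblast growth factor receptor opposite G630022F23Rik, was on the other side of 0 at 1.01 ± 0.49. The remaining partners lay between -1.63 (Wnt7b) and 1.07 (Riox1), and none of them reached an unadjusted p-value of 0.05.

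The gene models Gm15628, Gm26571, Gm35065, 6330410L21Rik and AU022754 complete the 14 with a partner, with log2 fold changes of -4.03 ± 0.82, -1.69 ± 0.36, -2.90 ± 0.62, -3.89 ± 0.72 and -3.54 ± 0.76.

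The called genes without an opposite-strand partner were, apart from Dbndd1, gene models of low level. The pseudogene Gm8941 ranged from 1.85 to 9.51 CPM (median 3.8) in Control and from 0 to 0.785 CPM (median 0.315) in PNx. BC046401, a transcript of no annotated function, ranged from 0.669 to 18 CPM (median 11.6) in Control and from 0.252 to 2.36 CPM (median 1.22) in PNx. The pseudogene Gm6312 ranged from 1.23 to 7 CPM (median 5.02) in Control and from 0 to 1.57 CPM (median 0.126) in PNx. Gm15684 ranged from 0 to 9.51 CPM (median 6.21) in Control and from 0 to 0.785 CPM (median 0.543) in PNx, so the lowest Control library had no count.

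The 6 Control libraries were not alike in these genes. Relative to the Control mean, the median over the 20 genes was 113, 170, 125 and 128% in Control 1 to 4, and 35.2 and 35.9% in Control 5 and 6. Control 5 and 6 both lay below all of Control 1 to 4 in 18 of the 20 genes. Among the nephrectomised mice the same median was 9.83, 14 and 8.91% in PNx 1 to 3, 33.8 and 26% in PNx 4 and 5, and 7.18% in PNx 6. All PNx libraries lay below all of Control 1 to 4 in 20 genes. PNx 4 and 5 both lay below the lowest Control library in 4 genes, and the groups did not overlap in 4 (Gm8941, Gm45805, Gm26620 and Foxl2os), against 0.368% of all genes tested.

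**Figure D1:**
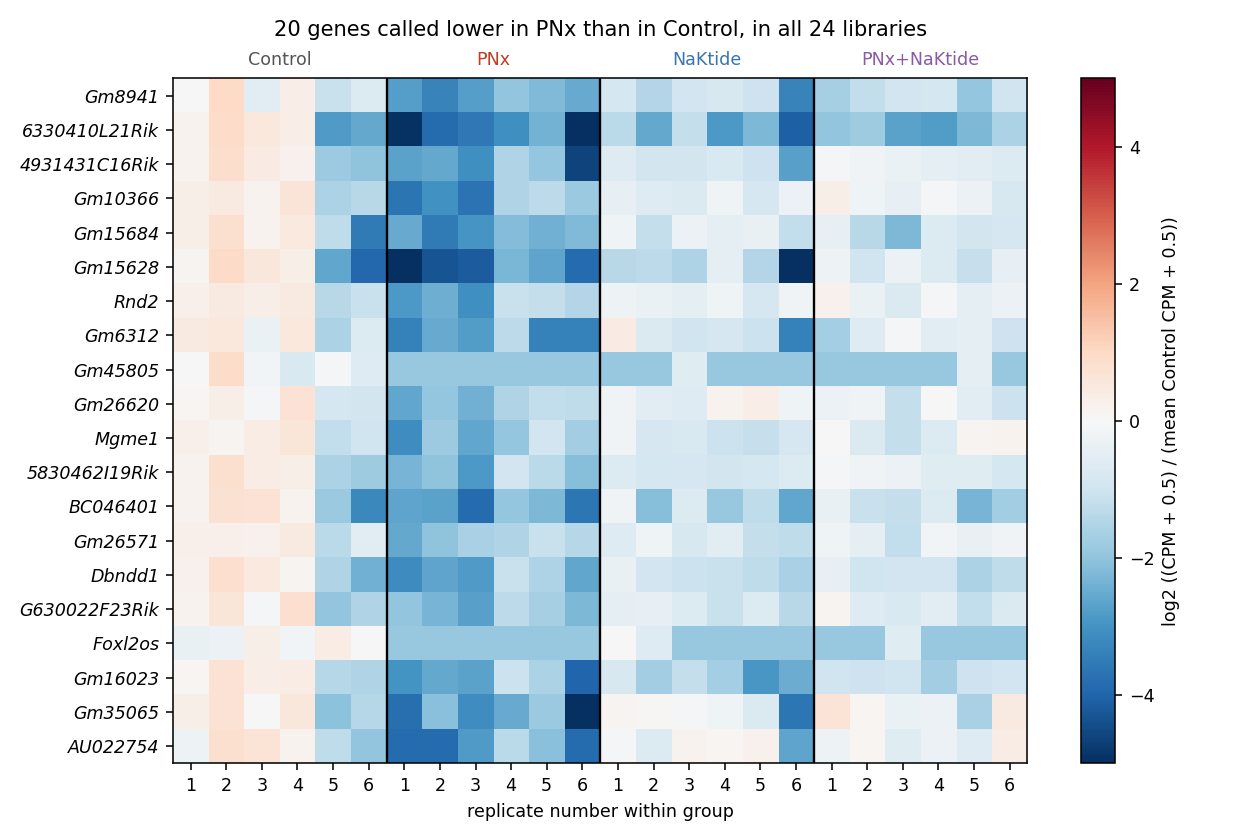
Heat map of the 20 genes called lower in PNx than in Control, one row per gene and one column per library in the 4 groups, coloured by log2 of CPM plus 0.5 over the Control mean plus 0.5. Control 5 and 6 are below Control 1 to 4 in 18 of the genes, and PNx 4 and 5 are paler than PNx 1 to 3.

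The number of calls moved with the libraries included. Without Control 5 and 6, a choice made after seeing the data, 244 genes were called, and all 20 were among them. Without any single library of Control 1 to 4 or of PNx 1 to 3, 0 genes were called, with 4214 to 5949 at an unadjusted p-value under 0.05. Without PNx 4, PNx 5 or PNx 6 the number was 7213, 5986 and 3782, of which 4677, 4182 and 2839 were higher in PNx. All 20 genes kept a negative log2 fold change in each of these fits. Without PNx 1, 2 and 3 together, also chosen after seeing the data, their log2 fold changes ran from -4.20 to -1.26, with unadjusted p-values of 0.00081 to 0.0041. The 20 genes had been called with the libraries that these fits retained, so none of these values is independent support.

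The nephrectomy comparison under NaKtide gave other values for the same genes. In PNx+NaKtide against NaKtide, 5 of the 20 genes had a negative log2 fold change, against 46.9% of all genes tested. None of the 20 reached an unadjusted p-value under 0.05 there, against 4.09% of all genes, and their median log2 fold change was 0.11. Relative to the Control mean the 20 genes stood at 16.4 to 75.3% in NaKtide libraries and at 52.4 to 81.9% in PNx+NaKtide libraries. Both ranges lay below Control 1 to 4. The number of negative signs ran from 4 to 10 when each of these 12 libraries was left out in turn, with 10 without NaKtide 6 and 8 without PNx+NaKtide 1. No gene passed the test of the difference between both nephrectomy effects, for which the smallest adjusted p-value was 0.377 in edgeR. At an unadjusted p-value under 0.05 that test gave 2421 genes, 9.27% of those tested.

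Below the threshold of the adjusted test, 6636 genes had an unadjusted p-value under 0.05. Of these, 4838 (18.5% of genes tested) were higher in PNx and 1798 (6.88%) were lower. The split moved with the scaling, because the median over all genes was 0.361 here on the log2 scale, 0.757 with DESeq2 size factors and 0.698 with library size scaling. With DESeq2 size factors 9105 were higher and 989 lower, and with library size scaling 7220 and 1288. With the sample weights of limma voom the median was -0.045, with 8257 higher and 7763 lower. The counts of genes whose 6 PNx and 6 Control values did not overlap leaned the other way, with 31 higher (0.119%) and 96 lower (0.368%). With library size scaling they were 31 and 102. With DESeq2 size factors they were 82 and 43, the reverse of the other two scalings.

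The higher genes lay above Control mainly in 3 of the 6 nephrectomised mice. In PNx 1, 2 and 3, 94.5, 88.5 and 94.5% of the 4838 higher genes exceeded the highest Control library. In PNx 4, 5 and 6 these shares were 7.59, 7.32 and 34.1%. PNx 1 to 3 all exceeded the highest Control in 4134 of the genes, and all 6 PNx libraries did so in 29. For the 1798 lower genes, 78.7, 75.3 and 80.4% lay below the lowest Control in PNx 1 to 3, against 18.6, 24.4 and 66.5% in PNx 4 to 6. The share of genes above the highest Control also differed within the other groups, from 5.81 to 43.6% in NaKtide and from 3.33 to 66.6% in PNx+NaKtide. The spread of log2(CPM + 1) was larger in PNx than in Control for 21748 genes (83.3%). Without PNx 1 to 3, a choice made after seeing the data, 1809 genes were higher and 989 lower at an unadjusted p-value under 0.05, and 0 were called.

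**Figure D2:**
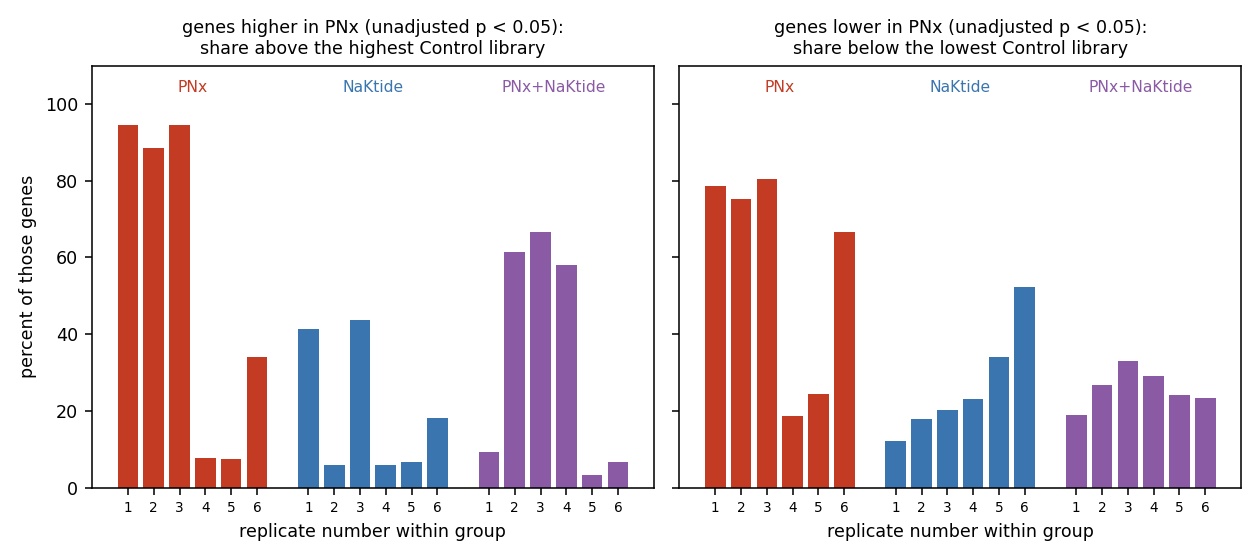
Percent of the genes higher (left) or lower (right) in PNx at an unadjusted p-value under 0.05 that lay beyond the range of the 6 Control libraries, one bar per library of the other 3 groups. PNx 1 to 3 stand at 88.5 to 94.5% on the left, and PNx 4 and 5 at 7.59 and 7.32%.

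Among protein-coding genes with no opposite-strand partner and a mean of at least 5 CPM, the smallest unadjusted p-value on the higher side was that of Cog6, a subunit of the conserved oligomeric Golgi complex that tethers vesicles. Cog6 (chr3:52981875-53017237, minus strand) ranged from 1 to 4.68 CPM (median 3.6) in Control and from 4.71 to 18.7 CPM (median 13.4) in PNx. Its groups did not overlap, and its log2 fold change was 1.99 ± 0.49 (unadjusted p-value 0.00037, adjusted 0.127). Clec16a, which acts in endosomes and mitophagy, had 2.81 ± 1.37 CPM in Control and 11.8 ± 6.53 CPM in PNx. Gmfb, an actin regulator of the cofilin fold, had 1.6 ± 1.07 CPM in Control and 11 ± 8.35 CPM in PNx. Lnx2, a ubiquitin ligase that binds Numb, had 2.46 ± 1.06 CPM in Control and 8.57 ± 4.37 CPM in PNx. Ube2b, a ubiquitin-conjugating enzyme of DNA damage tolerance, had 2.97 ± 1.54 CPM in Control and 9.14 ± 5.05 CPM in PNx. Their log2 fold changes were 2.05 ± 0.53 for Clec16a, 2.75 ± 0.74 for Gmfb, 1.79 ± 0.48 for Lnx2 and 1.62 ± 0.44 for Ube2b. In Clec16a and Gmfb the libraries PNx 4 and 5 lay within the Control range, while PNx 1 to 3 stood at 15.9 CPM or more.

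A pair of genes on this list bears on fat directly. Cdh13 encodes T-cadherin, a cell-surface protein that binds adiponectin, and ranged from 0 to 3.35 CPM (median 1.84) in Control and from 0.785 to 30.3 CPM (median 17.7) in PNx, a log2 fold change of 3.02 ± 0.82. Slc25a20 encodes the mitochondrial carnitine-acylcarnitine carrier, which brings fatty acids in for oxidation, and ranged from 0 to 5 CPM (median 1.98) in Control and from 0.785 to 26.7 CPM (median 15.4) in PNx, a log2 fold change of 2.61 ± 0.72. In both genes PNx 4 and 5 lay within the Control range. The centrosomal gene Lrrcc1 stood at 27.8, 14.9 and 31.3 CPM in PNx 1 to 3 and at 1.57 to 2.64 CPM in PNx 4 to 6. The zinc finger genes Rex2 and Zfp600 showed the widest gap between mice. Rex2 stood at 94.4, 66.6 and 28.3 CPM in PNx 1 to 3, at 0 to 0.377 CPM in PNx 4 to 6 and at no more than 2.68 CPM in Control. Zfp600 stood at 60.4, 32.3 and 16.4 CPM in PNx 1 to 3, at 0 to 0.755 CPM in PNx 4 to 6 and at no more than 2.68 CPM in Control. Both belong to a cluster of near-identical copies on chromosome 4, so the assignment of reads between copies is uncertain.

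The higher protein-coding genes of highest level whose groups did not overlap were Smpd4, Tmem44, Cog6, Fam92a and Abce1. Smpd4, a neutral sphingomyelinase, ranged from 29.2 to 34.5 CPM (median 31.8) in Control and from 35 to 64.2 CPM (median 43.1) in PNx. The gap between its groups was narrow, its log2 fold change was 0.57 ± 0.31 and its unadjusted p-value was 0.0746. Tmem44, a membrane protein, ranged from 1.17 to 10 CPM (median 7.22) in Control and from 10.1 to 17.5 CPM (median 13.7) in PNx (log2 fold change 1.05 ± 0.40). Fam92a, a protein of the ciliary base, ranged from 1.78 to 6.5 CPM (median 5.35) in Control and from 7.07 to 9.36 CPM (median 7.82) in PNx (log2 fold change 0.81 ± 0.36). Abce1, which recycles ribosomes after termination, ranged from 0.592 to 4.18 CPM (median 3.17) in Control and from 4.71 to 15.1 CPM (median 8) in PNx (log2 fold change 1.73 ± 0.58). That PNx 4 and 5 lay above every Control library in these 4 genes follows from the choice of genes without overlap.

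On the lower side of the same ranking stood Dbndd1, Pidd1, H2-T24, Fads2, Gm14137, Vasn, Srxn1, Prrt1, Obsl1 and Cpsf4l. Pidd1, the scaffold of a caspase-2 activating complex, ranged from 8.02 to 73.5 CPM (median 46.1) in Control and from 0.493 to 8.64 CPM (median 1.69) in PNx, with a log2 fold change of -3.63 ± 0.83 (adjusted p-value 0.121). Control 5 and 6 were at 8.02 and 11.4 CPM, next to PNx 4 and 5 at 8.64 and 7.13 CPM. Srxn1, the sulfiredoxin that restores oxidised peroxiredoxins, ranged from 26.1 to 65.3 CPM (median 52.8) in Control and from 4.19 to 24.9 CPM (median 10.1) in PNx without overlap, with a log2 fold change of -1.95 ± 0.48. Fads2, the delta-6 desaturase of polyunsaturated fatty acid synthesis, ranged from 13 to 41.8 CPM (median 23.5) in Control and from 2.36 to 14.3 CPM (median 6.11) in PNx, with a log2 fold change of -1.82 ± 0.43. Vasn, a membrane protein that binds TGF-beta, had 47 ± 27 CPM in Control and 11.7 ± 4.05 CPM in PNx. H2-T24, a non-classical MHC class I gene with close paralogs, had 17.8 ± 12.2 CPM in Control and 3.81 ± 2.12 CPM in PNx. The cytoskeletal adaptor gene Obsl1 had 130 ± 70.1 CPM in Control and 32 ± 17.2 CPM in PNx. The log2 fold changes were -2 ± 0.48 for Vasn, -2.24 ± 0.52 for H2-T24 and -2.03 ± 0.51 for Obsl1. Prrt1, a membrane protein known from synapses, Cpsf4l, named after a polyadenylation factor, and the predicted gene Gm14137 had log2 fold changes of -2.02 ± 0.51, -1.29 ± 0.34 and -1.49 ± 0.35.

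The lower protein-coding genes of highest level whose groups did not overlap were Irf2bpl, Dmwd, Slc46a1, Glrp1 and Slc22a4. Irf2bpl, a nuclear protein related to a partner of interferon regulatory factor 2, ranged from 98.7 to 160 CPM (median 128) in Control and from 5.67 to 98 CPM (median 33.2) in PNx. Within PNx it stood at 5.67, 22.2 and 13.1 CPM in replicates 1 to 3 and at 94.2 and 98 CPM in replicates 4 and 5, against a lowest Control of 98.7 CPM. Dmwd, a WD repeat protein, ranged from 84.3 to 121 CPM (median 100) in Control and from 6.41 to 79.6 CPM (median 39.4) in PNx. Slc46a1, the proton-coupled folate transporter, ranged from 41.8 to 62.7 CPM (median 57.1) in Control and from 3.2 to 40.4 CPM (median 7.9) in PNx. Slc22a4, a transporter of ergothioneine, ranged from 28.8 to 59.5 CPM (median 42.1) in Control and from 1.51 to 25.1 CPM (median 22.9) in PNx. Glrp1, a glutamine-rich protein, ranged from 36.7 to 60.7 CPM (median 54.7) in Control and from 0.755 to 33.8 CPM (median 19.2) in PNx. Their log2 fold changes were -1.47 ± 0.47 for Irf2bpl, -1.30 ± 0.48 for Dmwd, -1.73 ± 0.55 for Slc46a1, -1.41 ± 0.60 for Glrp1 and -1.15 ± 0.65 for Slc22a4. In none of these genes did Control 5 and 6 both lie below Control 1 to 4.

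Promoter sequences were set beside these values, since genes of low GC content were more often higher in PNx. The promoters of the leading gene in each direction that had a single entry, Cog6 (GRCm38, chr3:53017174-53017473, minus strand) and Pidd1 (GRCm38, chr7:141443976-141444275, minus strand), are shown from RefSeq, 250 bases before to 50 bases after the start, 5′ to 3′. Capitals mark the GC box GGGCGG on either strand, the binding motif of Sp1 family factors.
Cog6: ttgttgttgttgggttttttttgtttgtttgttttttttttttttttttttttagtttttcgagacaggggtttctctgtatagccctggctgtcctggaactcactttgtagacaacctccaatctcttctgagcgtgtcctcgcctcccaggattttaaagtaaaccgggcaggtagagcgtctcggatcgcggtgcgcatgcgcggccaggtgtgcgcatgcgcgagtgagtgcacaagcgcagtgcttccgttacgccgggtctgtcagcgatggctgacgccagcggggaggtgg
Pidd1: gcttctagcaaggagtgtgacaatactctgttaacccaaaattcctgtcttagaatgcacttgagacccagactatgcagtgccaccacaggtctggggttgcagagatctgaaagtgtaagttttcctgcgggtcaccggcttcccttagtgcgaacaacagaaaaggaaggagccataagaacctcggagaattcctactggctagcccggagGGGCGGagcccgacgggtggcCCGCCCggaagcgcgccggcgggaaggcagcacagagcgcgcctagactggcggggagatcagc
The Cog6 window had a GC content of 51.7% and 0 GC boxes, and the Pidd1 window 57.7% and 2, while 35.7% of all 32851 promoters in the table held at least 1. Other named genes differed from this pair. On the higher side Lnx2 and Slc25a20 held 2 and 3 boxes, and on the lower side Prrt1 and Obsl1 held 0. The pair therefore does not stand for the genes of its direction. Over 12278 tested genes with a single promoter, the median log2 fold change was 0.819 in the lowest of 4 bins of promoter GC and 0.396, 0.392 and 0.327 in the others. The shares higher at an unadjusted p-value under 0.05 were 25.1, 18.2, 18 and 16.1%, and the shares lower were 5.57, 6.35, 6.16 and 5.44%. The Cog6 and Pidd1 windows lay in the same bin, of 51.3 to 58.3%. Genes with the GC box had a median of 0.375 and genes without it one of 0.587.

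The 32 gene lists held 882 tested genes. None of these was called in PNx against Control, 148 were higher and 28 lower at an unadjusted p-value under 0.05, and DESeq2 and voom called 252 and 561 of them. The counts below refer to the unadjusted p-value and stand against 18.5% higher and 6.88% lower over all genes tested, and the list medians against 0.361. Of the 27 lists with a positive median, 19 had a negative one without PNx 6, and that value stands beside each of them. With the sample weights of voom 20 of the 27 were negative. Of the 5 lists with a negative median, 3 turned positive with DESeq2 size factors. List members were named below only if their direction held in the alternative settings, except where a turn is stated. These settings did not include the joint omission of 3 PNx libraries. The named members therefore do not stand for their lists, whose medians often turned. Not every member with an opposite-strand partner is marked below. Such a partner was found for 21 of 61 cell cycle genes and 11 of 23 MHC class I presentation genes, but for 0 of 19 epididymis markers.

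The median of the adipocyte markers changed sign with 1 mouse. Of 15 adipocyte markers, 5 were higher and 0 lower, with a median log2 fold change of 1.64, which became -1.30 without PNx 6 and -2.13 under the sample weights of voom. Fabp4, the fatty acid binding protein of adipocytes, stood at 27.5 to 129 CPM in PNx 1 to 5 and at 1660 CPM in PNx 6, against 72.9 to 239 CPM (median 129) in Control. Its log2 fold change of 1.17 ± 0.89 turned to -1.27 without PNx 6. Adipoq had a log2 fold change of 1.89 ± 0.79, with PNx 4 and 5 at 5.5 and 13.1 CPM and PNx 1 to 3 at 88.6 to 141 CPM. Of 24 genes of adipocyte identity, 4 were higher and 0 lower (median 1.57, and -0.944 without PNx 6). Tmem120a, a nuclear envelope protein of fat cells, ranged from 0.592 to 6.17 CPM (median 4.09) in Control and from 0.785 to 52.5 CPM (median 28) in PNx. Slc2a4, the insulin-responsive glucose transporter, ranged from 1.18 to 6.79 CPM (median 2.88) in Control and from 3.93 to 44.9 CPM (median 11.3) in PNx. Acsl1, which activates long-chain fatty acids, had 28.3 ± 15.8 CPM in Control and 76.7 ± 44.8 CPM in PNx. In Tmem120a, Slc2a4 and Acsl1 PNx 1, 2, 3 and 6 lay above every Control library and PNx 4 and 5 did not. The log2 fold changes of Adipoq, Tmem120a, Slc2a4 and Acsl1 kept their sign in all 22 alternative settings. That was a condition for naming members of a list, so it is no separate support. The omission of PNx 1 to 3 was not among these settings. The medians of both lists turned negative without PNx 6, so the named genes do not stand for their lists. Under NaKtide the median of the adipocyte markers was -1.42, where their summed level was 5610 CPM in NaKtide 6 and 352 to 716 CPM in the other NaKtide libraries.

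Of 23 genes of lipid droplets and lipolysis, 8 were higher and 1 lower (median 1.39, and -0.196 without PNx 6). Lipe, the hormone-sensitive lipase, stood at 13.3 to 65.1 CPM in PNx 1 to 5 and at 350 CPM in PNx 6, against 14.2 to 46 CPM (median 27.1) in Control. Pnpla2, the adipose triglyceride lipase, stood at 8.64 to 39.4 CPM in PNx 1 to 5 and at 234 CPM in PNx 6, against 8.28 to 32 CPM (median 18.6) in Control. Aqp7, the glycerol channel of fat cells, had a log2 fold change of 2 ± 0.61. Hilpda, a hypoxia-induced inhibitor of lipolysis, stood at 10.8 to 17.4 CPM in PNx 1 to 3 and at 2.36 to 3.02 CPM in PNx 4 to 6, and ranged from 0.592 to 3.7 CPM (median 1.83) in Control.

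Fatty acid and triglyceride synthesis was divided. Of 25 genes, 3 were higher and 3 lower (median 0.588, and -0.719 without PNx 6). The lower ones included both desaturases of polyunsaturated fatty acids and Acss2, which makes acetyl-CoA from acetate. Fads1, the delta-5 desaturase, ranged from 126 to 157 CPM (median 138) in Control. It was at 18.5 to 41.2 CPM in PNx 1, 2, 3 and 6 and at 150 and 147 CPM in PNx 4 and 5, so that PNx 4 and 5 lay within the Control range and the other 4 below it. Acss2 had a log2 fold change of -0.66 ± 0.30. Me1, the malic enzyme that supplies NADPH, was on the higher side at 2.42 ± 0.82. Of 13 tested thermogenic genes, 5 were higher and 0 lower (median 1.78, and 0.0403 without PNx 1 to 3). Dio2, the deiodinase that activates thyroid hormone, was at 36, 34.3 and 19.9 CPM in PNx 1 to 3 and at no more than 0.785 CPM in PNx 4 to 6. Cpt1b, which moves fatty acids into mitochondria, was at 32.5, 28.3 and 14.4 CPM in PNx 1 to 3 and at no more than 0.377 CPM in PNx 4 to 6. Otop1, a proton channel, had the same pattern, with 22.2 CPM or more in PNx 1 to 3 and at most 1.13 CPM in PNx 4 to 6. Ebf2, a transcription factor of brown fat, had a log2 fold change of 3.40 ± 0.92.

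Of 30 insulin signalling genes, 2 were higher and 0 lower (median 0.183, and -0.373 without PNx 6). These were Slc2a4 and Grb10, an adaptor that inhibits the insulin receptor (3.06 ± 1.01). The adaptor gene Shc1 had 34 ± 6 CPM in Control and 39.6 ± 11.7 CPM in PNx. Among 26 genes of the Na,K-ATPase and Src family kinases, 7 were higher and 1 lower (median 0.723, and -0.204 without PNx 6). Atp1b3, a beta subunit of the pump, ranged from 2.37 to 12.3 CPM (median 8.38) in Control and from 2.36 to 35.6 CPM (median 26.3) in PNx, with a log2 fold change of 1.55 ± 0.53. Atp1b1, the other widespread beta subunit, ranged from 53.7 to 99.6 CPM (median 74) in Control and from 29.1 to 168 CPM (median 109) in PNx and had a log2 fold change of 0.45 ± 0.36 (unadjusted p-value 0.227). Fyn, a kinase of the Src family, was at 3.20 to 10.9 CPM in PNx 1, 2, 3 and 6 and at 65.2 and 49.3 CPM in PNx 4 and 5, against 31.6 to 60.4 CPM (median 52.2) in Control.

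Genes of oxidant defence showed no common direction. Of 32 targets of NRF2 and peroxide-metabolising enzymes, 2 were higher and 2 lower (median 0.301, and -0.605 without PNx 6). The lower ones were Srxn1, described above, and Prdx5, a peroxiredoxin, which was at 20.9 to 34.3 CPM in PNx 1 to 3 and at 112 to 124 CPM in PNx 4 to 6, against 97.7 to 157 CPM (median 137) in Control. Osgin1, an oxidant-induced growth inhibitor, was on the higher side with 4.06 ± 1.89 CPM in Control and 11.3 ± 8.71 CPM in PNx. Sod1, the cytosolic superoxide dismutase, had a log2 fold change of 0.51 ± 0.30 with an unadjusted p-value of 0.103. Of 13 tested genes of superoxide-producing oxidases, 1 was higher and 0 lower (median 0.522, and -0.344 without PNx 6). That gene was Nox3, which was at 26.1, 33.5 and 22.2 CPM in PNx 1 to 3 and at no more than 0.377 CPM in PNx 4 to 6. Nox1, an NADPH oxidase, ranged from 33.4 to 90.7 CPM (median 73.1) in Control and from 10.6 to 142 CPM (median 24.7) in PNx.

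Of 36 tested genes of Toll-like receptor and NF-kB signalling, 4 were lower (11.1%) and 2 higher (median 0.028, and -0.523 without PNx 6). Myd88, the adaptor of most Toll-like receptors, ranged from 18.5 to 54.3 CPM (median 42.6) in Control and from 4.44 to 22 CPM (median 12.2) in PNx, with a log2 fold change of -1.53 ± 0.41 (adjusted p-value 0.128). Ikbkg, the regulatory subunit of the IkB kinase, ranged from 96.4 to 389 CPM (median 269) in Control and from 9.36 to 162 CPM (median 46.7) in PNx, with a log2 fold change of -1.93 ± 0.50 (adjusted p-value 0.128). Irak4, the kinase that acts below Myd88, and Nfkb2, a precursor subunit of NF-kB, had log2 fold changes of -0.83 ± 0.34 and -1.01 ± 0.44. In Myd88, Ikbkg and Irak4 the libraries Control 5 and 6 lay below Control 1 to 4, the same split as in the called genes. All 4 genes share exon bases with an opposite-strand gene (G6pdx for Ikbkg, Twf1 for Irak4, Acaa1a for Myd88 and Psd for Nfkb2).

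Of 30 tested cytokine and chemokine genes, of which 2 gene identifiers share the name Ccl19, 4 were higher and 0 lower (median 0.68, and -0.583 without PNx 6). Tgfb3 had 3.72 ± 1.52 CPM in Control and 13.4 ± 10 CPM in PNx, and Tgfb1, the more abundant form in most tissues, had 22.3 ± 5.53 CPM in Control and 13.3 ± 12 CPM in PNx. Il1a, an alarmin, was at 62.3 to 90.1 CPM in PNx 1 to 3 and at 5.66 to 33.8 CPM in PNx 4 to 6, against 20.7 to 50.5 CPM (median 29.5) in Control. The cytokine gene Mif had a log2 fold change of 0.30 ± 0.34 (unadjusted p-value 0.38). Of 23 genes of MHC class I presentation, 2 were higher and 0 lower (median -0.0951, 0.134 with DESeq2 size factors and -0.965 without PNx 6). Tapbp, the tapasin that loads peptides, ranged from 305 to 461 CPM (median 416) in Control and from 165 to 427 CPM (median 292) in PNx. Calr, a chaperone of the endoplasmic reticulum that also serves class I molecules, ranged from 185 to 450 CPM (median 366) in Control and from 72.7 to 445 CPM (median 177) in PNx.

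Ubiquitin enzymes appeared on both sides. Of 65 genes of conjugation and ligation, 15 were higher and 3 lower (median 0.786, and 0.233 without PNx 6). The higher ones included Ube2b and Cul3, the scaffold of a ligase family, which had 7.64 ± 4.3 CPM in Control and 20.4 ± 13.3 CPM in PNx. The lower ones included Stub1, a ligase that works with heat shock proteins, and Btrc, an F-box protein that marks IkB. Stub1 was at 102, 239 and 165 CPM in PNx 1 to 3 and at 967 and 807 CPM in PNx 4 and 5, against 699 to 1020 CPM (median 937) in Control. Btrc was at 47.8, 122 and 79.2 CPM in PNx 1 to 3 and at 516 and 405 CPM in PNx 4 and 5, against 320 to 520 CPM (median 481) in Control. Ube2s, a partner of the anaphase-promoting complex, was at 60.6 to 115 CPM in PNx 1 to 3 and at 185 to 364 CPM in PNx 4 to 6, against 193 to 395 CPM (median 272) in Control. Of 32 proteasome genes, 4 were higher and 0 lower (median 0.419, and -0.173 without PNx 6). Psmd6 and Psmd13, lid subunits, had log2 fold changes of 1.11 ± 0.38 and 1.23 ± 0.50, while Psmc3, an ATPase subunit, had 113 ± 10.5 CPM in Control and 119 ± 18.7 CPM in PNx.

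Of 61 tested cell cycle genes, 10 were higher and 2 lower (median 0.637, and 0.352 without PNx 6). Cdk4, a kinase of the G1 phase, was at 69.5, 308 and 214 CPM in PNx 1 to 3 and at 1930 and 1350 CPM in PNx 4 and 5, against 714 to 1410 CPM (median 1250) in Control. Its log2 fold change of -0.64 ± 0.48 had an unadjusted p-value of 0.194. Cdk6, its relative, ranged from 6.5 to 10.5 CPM (median 7.43) in Control and from 1.13 to 6.28 CPM (median 2.37) in PNx without overlap, with a log2 fold change of -1.42 ± 0.47. Bub1, a mitotic checkpoint kinase, was detected in PNx 1 to 3 at 1.62 to 4.68 CPM, in Control 1 at 0.464 CPM and in no other library of both groups.

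Genes of intraflagellar transport and the BBSome, which build and serve cilia and, in the testis, the sperm flagellum, had the largest share of higher members among the process lists, 39.5%. Of 43 genes, 17 were higher and 0 lower, with a median of 1.14, which was 1.23 without PNx 6 and 0.154 without PNx 1 to 3. Cep290, a protein of the ciliary gate, was at 99.5, 83.2 and 76.7 CPM in PNx 1 to 3 and at 44, 26.1 and 21.1 CPM in PNx 4 to 6, against 19.8 to 30.1 CPM (median 28.1) in Control. Kifap3, the adaptor of the anterograde motor, ranged from 0 to 4.68 CPM (median 1.85) in Control and from 0 to 28.3 CPM (median 7.8) in PNx. Ift172, a subunit of the anterograde train, was at 51.5, 27.1 and 54.5 CPM in PNx 1 to 3 and at 11.8 to 17.4 CPM in PNx 4 to 6, against 15.2 to 25.5 CPM (median 20.5) in Control. The summed level of the list was 592 to 1160 CPM in PNx 1 to 3, 175 to 408 CPM in PNx 4 to 6 and 150 to 336 CPM in Control. Markers of male germ cells had summed levels of 2090, 1470 and 2660 CPM in the libraries PNx 1 to 3, against 175 to 1090 CPM in PNx 4 to 6 and 149 to 744 CPM in Control. Their part in the levels of the ciliary genes was not tested. Under NaKtide the median of the ciliary list was 0.0382.

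Of 76 tested nuclear genes of oxidative phosphorylation, 7 were higher and 2 lower (median 0.407, and -0.454 without PNx 6). Uqcrq, of complex III, ranged from 6.51 to 25.3 CPM (median 20.2) in Control and from 9.42 to 80.8 CPM (median 54.7) in PNx, and Ndufa9, of complex I, ranged from 2.33 to 14.1 CPM (median 11.1) in Control and from 3.14 to 50.9 CPM (median 35.3) in PNx. Cox6c, of complex IV, was on the lower side at -0.63 ± 0.28. Cytosolic ribosomal protein genes leaned to the lower side, with 59 of 77 negative and a median of -0.209, but 1 was higher and 0 were lower at an unadjusted p-value under 0.05. With DESeq2 size factors the median was 0.0437 and so on the other side of 0. Rpl13a was the higher gene, with 1.1 ± 0.908 CPM in Control and 6.37 ± 3.7 CPM in PNx, and its many processed copies make its counts uncertain. Rps25 and Rpl26, subunits of the small and large ribosome, had log2 fold changes of -0.62 ± 0.31 and -0.62 ± 0.46. Of 35 chaperone genes, 3 were higher and 2 lower (median -0.0675, and 0.248 with DESeq2 size factors). Hsp90aa1, the stress-induced HSP90, was at 246, 188 and 273 CPM in PNx 1 to 3 and at 15.7 to 86.4 CPM in PNx 4 to 6, against 19.5 to 76.3 CPM (median 56.7) in Control. Hsp90b1, its relative in the endoplasmic reticulum, ranged from 127 to 240 CPM (median 211) in Control and from 62.3 to 276 CPM (median 116) in PNx.

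Of 39 tested genes of collagen, matrix and TGF-beta signalling, 5 were higher and 1 lower (median 1.13, and -0.502 without PNx 6). Col14a1, a fibril-associated collagen, was at 10.6 to 12.5 CPM in PNx 1 to 3 and at 1.78 to 4.15 CPM in PNx 4 to 6, against 1.18 to 3.5 CPM (median 2.57) in Control. Of 24 tested p53 targets, 6 were higher and 0 lower (median 0.795, and -0.072 without PNx 6). Ei24, a protein of the endoplasmic reticulum linked to autophagy, was at 57 to 80.4 CPM in PNx 1 to 3 and at 4.16 to 19.6 CPM in PNx 4 to 6. Ddb2, which recognises ultraviolet damage, had a log2 fold change of -0.65 ± 0.35 (unadjusted p-value 0.0739).

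**Figure D3:**
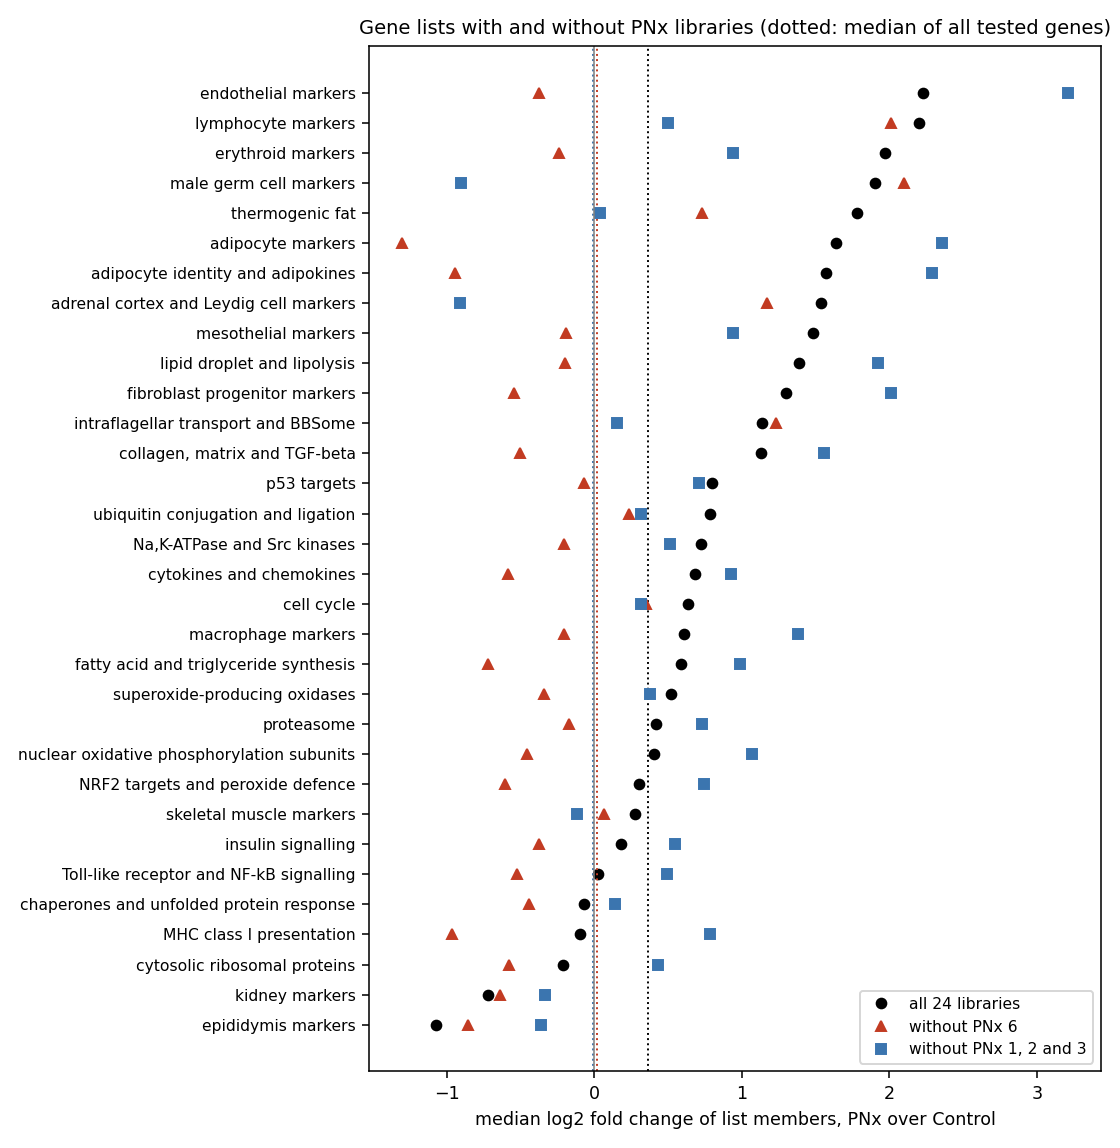
Median log2 fold change of PNx over Control for the members of 32 gene lists, with all libraries (circles), without PNx 6 (triangles) and without PNx 1 to 3 (squares); dotted lines mark the median of all genes tested, 0.361 with all libraries. The adipocyte markers move from 1.64 to -1.30 without PNx 6, and the intraflagellar transport list from 1.14 to 0.154 without PNx 1 to 3.

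Markers of other cell types and organs varied between mice of 1 group. Of 15 endothelial markers, 9 were higher and 0 lower (median 2.23), and the median was -0.375 without PNx 6. Their summed level was 137 to 248 CPM in Control, 188 to 313 CPM in PNx 1 to 5 and 1310 CPM in PNx 6. Tie1, an endothelial receptor kinase, was at 57.7 CPM in PNx 6 and at no more than 2.97 CPM in any other PNx library. Nos3, the endothelial nitric oxide synthase, instead was at 174, 149 and 84 CPM in PNx 1 to 3 and at 34.3 CPM in PNx 6, and it shares exon bases with Atg9b. Eng, a TGF-beta co-receptor of endothelium, was at 15.3 to 37.6 CPM in PNx 1 to 3 and at 154 and 113 CPM in PNx 4 and 5, against 57.6 to 127 CPM (median 89.2) in Control. Of 15 fibroblast progenitor markers, 5 were higher and 0 lower (median 1.30, and -0.546 without PNx 6), among them the adventitial progenitor genes Cd34 (1.54 ± 0.57) and Pi16 (2.15 ± 0.70). Erythroid markers summed to 40.7 to 82.1 CPM in PNx 1 to 5 and to 2280 CPM in PNx 6, and 5 of 12 were higher and 1 lower (median 1.97, and -0.236 without PNx 6). The beta-globin gene Hbb-bs was at 381 CPM in PNx 6 and at 0.404 to 11.9 CPM in the other PNx libraries, and its log2 fold change of 2.96 ± 1.13 turned to -0.941 without PNx 6.

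Of 15 macrophage markers, 1 was higher (Laptm5, 1.57 ± 0.71) and 1 lower (Cd68, -1.14 ± 0.55), both proteins of lysosomes, and the median was 0.61, or -0.205 without PNx 6. The summed macrophage level was 380 to 450 CPM in Control and 251 to 586 CPM in PNx. Of 9 tested lymphocyte markers, 5 were higher and 0 lower (median 2.20, and 0.502 without PNx 1 to 3). The summed level of all 15 lymphocyte markers was 34.7 to 55.1 CPM in PNx 1 to 5 and 127 CPM in PNx 6, against 38.2 to 59.4 CPM in Control. The B cell gene Ms4a1 was at 12.3, 9.29 and 4.04 CPM in PNx 1 to 3 and at 0 in PNx 4 to 6, while Cd2, a T cell gene, was at 0 to 6.46 CPM in PNx 1, 2, 3 and 6 and at 61.2 and 44 CPM in PNx 4 and 5, against 37.6 to 53.5 CPM (median 43.3) in Control. Of 14 tested mesothelial markers, 5 were higher and 0 lower (median 1.48, and -0.192 without PNx 6), with Krt18 ranging from 40 to 102 CPM (median 75.8) in Control and from 0.493 to 131 CPM (median 20.1) in PNx, and the transcription factor gene Bnc1 at a log2 fold change of 3.11 ± 0.89. None of 15 skeletal muscle markers was higher or lower, and Ckm, the muscle creatine kinase, ranged from 8.03 to 19.5 CPM (median 17.2) in Control and from 1.23 to 13.7 CPM (median 2.67) in PNx. Under NaKtide the median of the muscle markers was -4.71, where their summed level was 6820 CPM in NaKtide 6 and 66.2 to 122 CPM in the other NaKtide libraries.

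Transcripts of the epididymis and of male germ cells differed widely between the nephrectomised mice. All 19 tested epididymis markers had a negative log2 fold change (median -1.07), and 1 of them, the ribonuclease family gene Rnase12, was lower at an unadjusted p-value under 0.05. Their summed level was 34.2, 415 and 1250 CPM in PNx 1 to 3, 1870 and 3270 CPM in PNx 4 and 5 and 199 CPM in PNx 6, against 1400 to 3390 CPM in Control. Adam7, a sperm maturation gene of the epididymis, was at 0.246 CPM in PNx 1, 17 CPM in PNx 6 and 361 CPM in PNx 5. All 25 male germ cell markers had a positive log2 fold change (median 1.90), and 9 were higher. Their summed level was 2090, 1470 and 2660 CPM in PNx 1 to 3, 175 and 214 CPM in PNx 4 and 5 and 1090 CPM in PNx 6, against 149 to 744 CPM in Control. Without PNx 1 to 3 the median of the germ cell list was -0.901. Sycp3, of the meiotic chromosome axis, was at 412 CPM in PNx 6, and Tex14, of germ cell bridges, was at 13.4 to 18.5 CPM in PNx 1 to 3 and at 0 to 1.13 CPM in PNx 4 to 6. What part these tissues had in the values of the other genes was not tested.

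Kidney and adrenal markers were also counted. Of 13 tested kidney markers, 3 were lower and 1 higher (median -0.723). Nphs1, the nephrin gene of podocytes, was at 459, 1040 and 675 CPM in PNx 1 to 3 and at 4130, 3600 and 2020 CPM in PNx 4 to 6, against 2840 to 4400 CPM (median 3870) in Control, and it overlaps its own antisense gene. Slc5a2, the glucose transporter SGLT2, was at 58.4 to 129 CPM in PNx 1 to 3 and at 605 and 483 CPM in PNx 4 and 5, against 266 to 479 CPM (median 449) in Control. Aqp6, a water channel of the collecting duct, had a log2 fold change of -2.96 ± 1, with Control 5 and 6 at 5.55 and 6.02 CPM. Of 14 tested markers of adrenal cortex and Leydig cells, 3 were higher and 1 lower (median 1.54, and -0.912 without PNx 1 to 3). Star, which moves cholesterol into mitochondria, was on the lower side at -0.80 ± 0.33, and the 11-beta-hydroxylase gene Cyp11b1 was seen at 4.54 to 14.1 CPM in PNx 1 to 3 and at 0 in PNx 4 to 6.

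**Figure D4:**
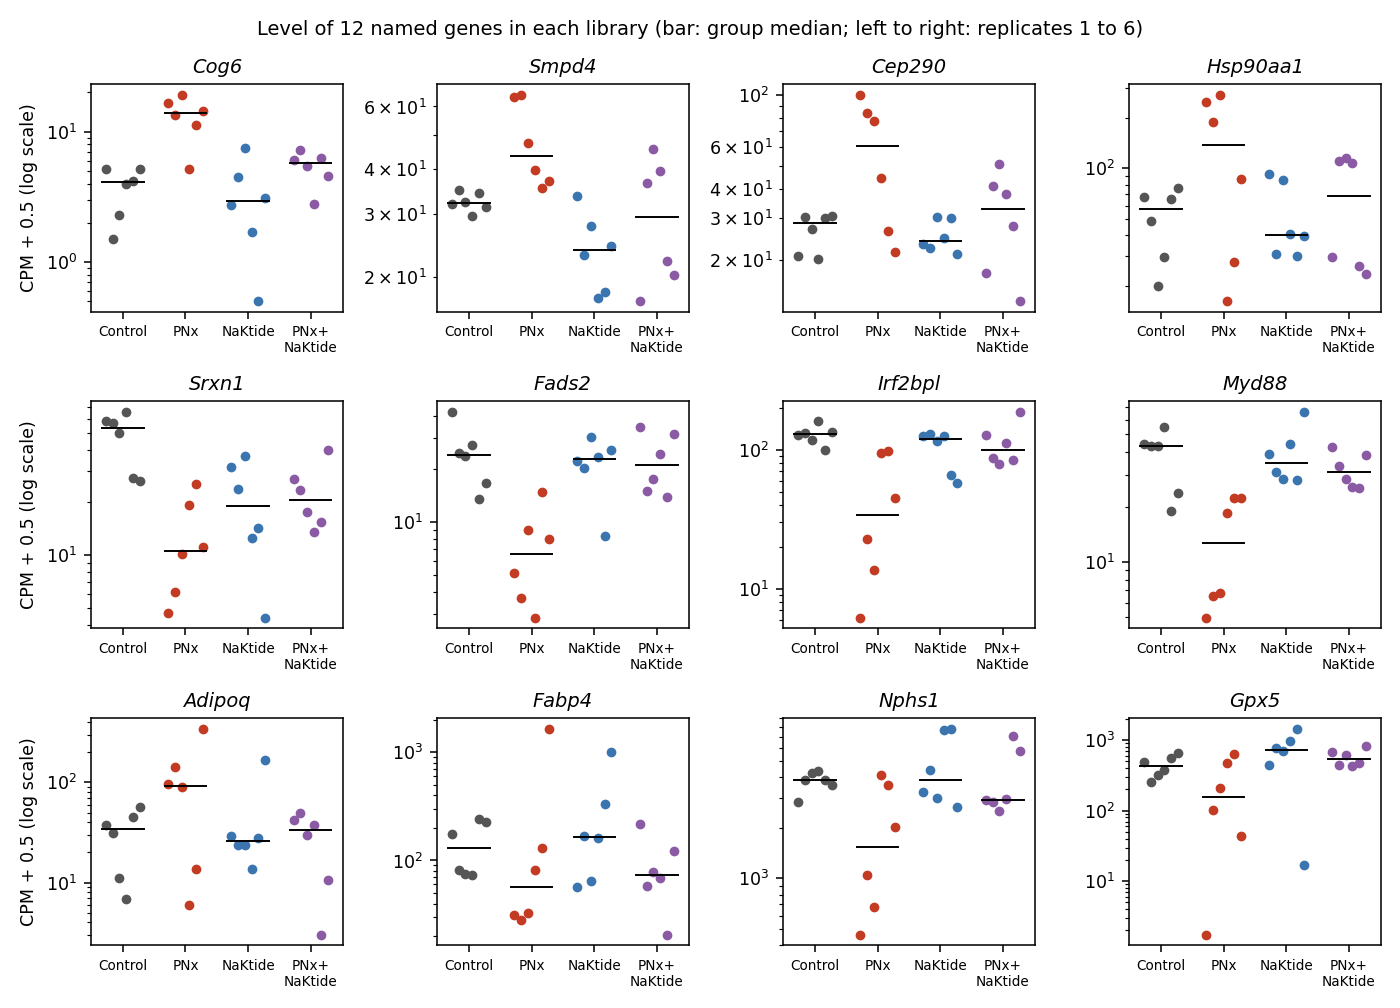
Level of 12 named genes in each of the 24 libraries, as CPM plus 0.5 on a log axis, one point per library in order of replicate number and a bar at the group median. The PNx group divides into replicates 1 to 3 and replicates 4 and 5 for Nphs1 (459 to 1040 against 3600 and 4130 CPM), Irf2bpl and Cep290, while PNx 6 stands alone for Fabp4.

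The direction of the difference varied with properties of the transcripts. Genes were split into 4 bins of equal size by the GC content of their longest transcript (edges 45, 49.3 and 53.9%). From the GC-poorest to the GC-richest bin the median log2 fold change was 0.683, 0.475, 0.25 and 0.0713. The share higher at an unadjusted p-value under 0.05 was 25, 20.1, 17.2 and 11.7%, and the share lower 3.99, 5.97, 7.66 and 9.98%. The same order was seen among protein-coding genes without an opposite-strand partner, with medians of 0.874, 0.699, 0.482 and 0.302. Genes with such a partner had a median of 0.0379, with 15.4% higher and 10.9% lower, and genes without one had a median of 0.514, with 20% higher and 5.07% lower. Antisense transcripts had a median of -0.211, with 12.3% higher and 18% lower. Under NaKtide the medians of the GC bins lay between -0.0177 and 0.0934.

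Per library, the difference between the GC-richest and the GC-poorest bin in mean log2(CPM + 1) was 1.04 to 1.2 in Control. It was 0.406, 0.633 and 0.467 in PNx 1 to 3 and 0.915, 1.12 and 0.934 in PNx 4 to 6. In the libraries of NaKtide and PNx+NaKtide it was 0.89 to 1.30. The libraries with the lowest values were those that carried the higher genes, and the part of this difference in the comparison was not tested.

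**Figure D5:**
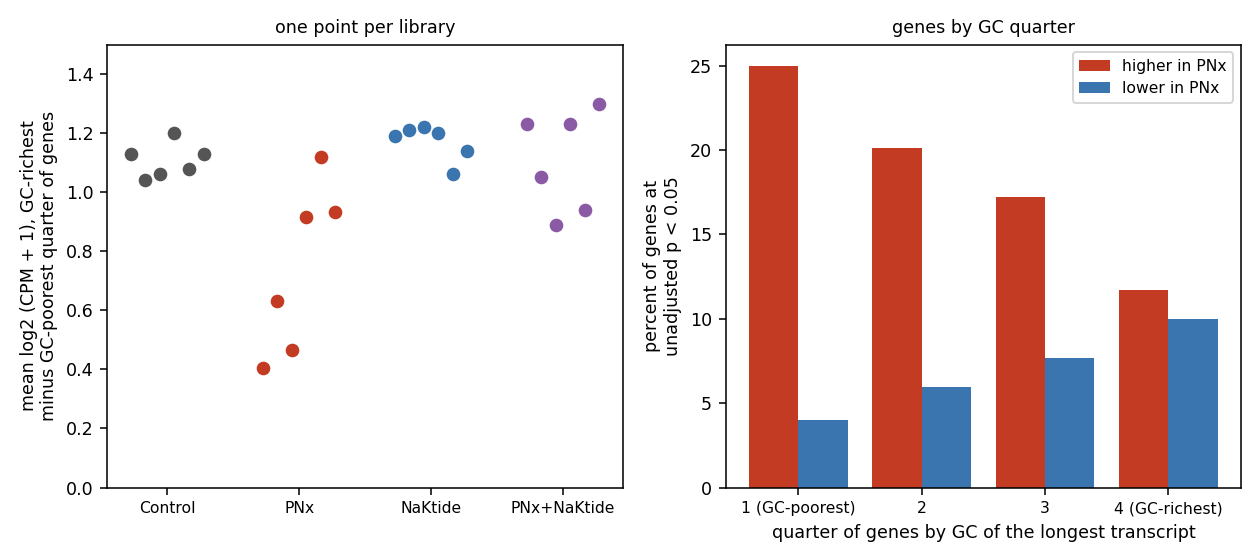
Left, mean log2(CPM + 1) of the GC-richest minus the GC-poorest bin of genes, one point per library in order of replicate number; PNx 1 to 3 lie at 0.406 to 0.633 and Control at 1.04 to 1.2. Right, percent of genes in each GC bin that were higher or lower in PNx at an unadjusted p-value under 0.05, from 25% higher in the GC-poorest bin to 11.7% in the GC-richest.

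Measures of whole libraries were compared between the groups with an exact two-sided permutation test over 924 assignments, whose smallest possible p-value is 0.00216. None of 6 measures passed a BH-adjusted p-value of 0.05. Counts of olfactory and vomeronasal receptor genes were 2604 ± 304 CPM in Control and 2170 ± 336 CPM in PNx (SD, n = 6, permutation p = 0.0433, adjusted 0.212). With receptor genes that lack an opposite-strand partner alone, PNx was instead the higher group, by 337 CPM. The share of counts in the 100 most-counted genes was 37 ± 2.66% in Control and 31.4 ± 7.23% in PNx (permutation p = 0.106). The number of genes detected at equal depth was 18228 ± 1406 in Control and 19374 ± 2333 in PNx (permutation p = 0.325). The share of counts on the mitochondrial chromosome was 1.88 ± 0.551% in Control and 1.79 ± 1.09% in PNx (permutation p = 0.864). The level of long genes against short genes, as a difference of mean log2 CPM, was 0.905 ± 0.106 in Control and 1.08 ± 0.224 in PNx (permutation p = 0.0974). For the share of counts in genes with an opposite-strand partner, given above, the permutation p was 0.342. In each of these measures the spread in PNx exceeded that in Control.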

How the data were processed

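RNA of visceral fat was sequenced from stranded mRNA libraries as paired reads. The authors trimmed reads with Trimmomatic 0.38, aligned them to GRCm38 with HISAT2 2.1.0 and counted them per gene, as stated in the methods and the submitters' processing notes. For the strand setting and the annotation release, the sources used here give nothing. All tests used the whole-number count table as deposited. The deposited FPKM values served only to recover a length per gene, and the deposited normalised table, made by the authors with DESeq2 1.20.0, was not used.

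Genes with more than 10 counts over 24 libraries were fitted in edgeR 4.0.16 (R 4.3.3) with TMM scaling, 4 group means and robust quasi-likelihood tests. Calls used a BH-adjusted p-value under 0.1. Log2 fold changes are given ± SE, CPM ± SD. Summed list levels and receptor counts were scaled to the library total alone. Alternatives were DESeq2 1.42.0, limma 3.58.1 voom with sample weights, other scalings and filters, a fit to 12 libraries, a replicate block and each library left out. Leaving out Control 5 and 6 together, or PNx 1 to 3 together, was chosen after seeing the data, as was the GC comparison. Gene positions and opposite-strand overlaps came from GENCODE M21, for 99.9% of the identifiers, and promoters from RefSeq. The fitting was tested on data simulated with a common mean per gene within each group. It was thus not tested on groups in which some libraries stand apart, as they do here.

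Genes were named if called, if among the 10 protein-coding genes per direction of smallest p-value with no opposite-strand overlap and a mean of at least 5 CPM, or if among the 5 such genes per direction of highest level whose groups did not overlap. Of each list, up to 4 members of highest level and 2 of smallest p-value qualified. Those whose direction turned under an alternative were left to the counts, except Fabp4 and Hbb-bs. A gene that the rule names is not reported here. Partner genes were named after their values were seen. The members and lists were chosen with earlier results of these data known. The labels give 1 library per mouse. The closest replicate pair, Control 5 and 6, differed by more than sampling noise (chi-square per degree of freedom 1.57). The next closest pair, Control 3 and 4, was at 2.62, and the other pairs ran up to 129. Whether Control 5 and 6 were as independent as the other libraries was not tested. Intervals and floors cover counting error only. Columns without a sample numbered 0.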

Additional observations from a re-analysis of the deposited data

Results flagged for a closer look

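Gaps between libraries were examined in 338 groups of 6 libraries (169 quantities in Control and in PNx). In 38 groups a library's gap to its nearest neighbour took more of the group's range than Dixon's 95% limit. Chance passes that limit in about 1 of 20 groups if values are normally distributed and groups are independent. Here the CPM values were not log-transformed and several quantities share genes. The 38 groups therefore cannot be set against that rate, and they only list libraries that stand apart. Each value below is the gap to the nearest neighbour as a share of the range.

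PNx 6 accounted for 23 of the groups past the limit. It was the highest library in summed level for the adipocyte identity list (0.948), lipid droplet and lipolysis (0.951), fatty acid synthesis (0.883), Na,K-ATPase and Src kinases (0.801), NRF2 targets (0.858), Toll-like receptor signalling (0.661), matrix (0.918) and p53 targets (0.837). It was also the highest for the markers of adipocytes (0.971), endothelium (0.889), fibroblast progenitors (0.954), lymphocytes (0.779) and erythroid cells (0.982). Among single genes it was the highest for Fabp4 (0.938), Lipe (0.846), Aqp7 (0.878), Pnpla2 (0.864), Grb10 (0.777), Sod1 (0.716), Tie1 (0.961), Hbb-bs (0.97) and Sycp3 (0.825), and the lowest for Slc22a4 (0.784). PNx 4 was the highest for Gm6312 (0.743).

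Control 1 was the highest for fatty acid synthesis (0.682), cytokines (0.685), erythroid markers (0.832), Bub1 (1), Laptm5 (0.673) and Hbb-bs (0.673), and the lowest for Glrp1 (0.646), Btrc (0.65) and Slc5a2 (0.808). Control 2 was the highest for Gm45805 (0.666) and Shc1 (0.654), Control 5 for Cdk6 (0.73), and Control 6 for Zfp600 (1) and Rex2 (0.827).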

How the results depend on the processing

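All 20 called genes kept a lower level in PNx in each fit that tested them, but the number called depended on the fit. It was 8696 with DESeq2 size factors, 4102 with library size scaling, 2159 after the filterByExpr filter, 7764 with DESeq2, 16654 with limma voom, 1 without a filter, 0 at an adjusted p-value under 0.05 and 0 in the fit to 12 libraries (6289 at an unadjusted p-value under 0.05). It was 244 without Control 5 and 6 and 0 without PNx 1 to 3, and 0 to 7213 with each library left out. Genes at an unadjusted p-value under 0.05, 6636 in number, were 10094 with DESeq2 size factors, 3977 after filterByExpr, 16020 with voom, 2798 without PNx 1 to 3, and 4214 to 9565 with each library left out. The higher share of these was 72.9%, and 90.2% with DESeq2 size factors, 84.9% with library size scaling, 87.3% with DESeq2, 82.4% in 12 libraries and 51.5% with voom. The causes were not tested. The number of called genes negative under NaKtide, 5, was 4 to 10 with each library left out. Replicate numbers did not pair the samples: same-numbered Control and PNx libraries correlated at -0.509 to 0.523, and only Control 2 and 4 correlated best with their own number. With the numbers as a replicate block 1 gene was called, and 2433 genes were higher and 2856 lower (46%) of 5289 at an unadjusted p-value under 0.05. Fabp4 turned to -1.64 with voom and -0.313 with the block, and ran from -1.27 to 1.41 with each library left out. Hbb-bs turned to -1.34 with voom and ran from -0.941 to 3.52. Receptor counts restricted to genes without an opposite-strand partner differed by 337 CPM, higher in PNx. The mitochondrial share among protein-coding genes differed by 0.0412 percentage points, and by -0.345 to 0.149 with each library left out. Of 63 named genes higher in PNx, 19 were lower without PNx 1 to 3, and of 68 lower ones 7 were higher.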
